A study of Homo sapiens with 6 samples.

Results

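Transcripts of 5 spindle position genes, SAPCD2, GPSM2, FAM83D, PSRC1 and NDE1, were followed in RPE-1 cells together with 4 features that the annotation places on the opposite strand of 3 of them. AL807752.3 and AL807752.2 lie opposite to SAPCD2, CLCC1 lies opposite to GPSM2, and MYH11 lies opposite to NDE1. These 9 features were found by gene ID among the 60252 IDs of the deposited count table, and 9 of 9 passed the filter on low counts that left 13510 features tested. They were chosen by name with earlier results of these data known, chiefly the inhibitor comparison at 4 h and the change from 4 h to 6 h in DMSO. For these 9 features those comparisons are therefore given below by their values, as descriptions with no test.

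RPE-1 is a telomerase-immortalised line of human retinal pigment epithelium. In 5 of the conditions cells began with 24 h in 2 mM thymidine, which starves cells of dCTP and holds them at the start of S phase. In the arrested condition the cells stayed unreleased and received no drug. In 4h_DMSO and 6h_DMSO the thymidine was removed with 3 washes, DMSO was added 1 h later, and cells were collected 4 h or 6 h after release, that is after 3 h or 5 h in DMSO. In 4h_ATRi and 6h_ATRi the cells were handled in the same way with AZ20, an inhibitor of the checkpoint kinase ATR, at 2 µM in place of the solvent alone. The design text places 4 h of release in late S phase and 6 h in G2. Cycling cells were asynchronous and had no thymidine. Each condition has 3 libraries, from experiments A, B and C, except 6h_ATRi, which has A and B. The question of the series was which genes ATR controls through transcription.

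When a cell divides, its spindle is turned and held by dynein motors anchored under the cell membrane. The protein LGN, product of GPSM2, is the bridge of this anchor: it binds a G protein alpha subunit at the membrane and NuMA, which in turn holds dynein. SAPCD2 binds LGN and keeps it off parts of the cortex. FAM83D, held at the spindle by HMMR, brings casein kinase 1 alpha there, PSRC1 (DDA3) brings the depolymerising kinesin KIF2A to spindle microtubules, and NDE1 links dynein to LIS1. Of the opposite features, CLCC1 encodes a chloride channel of the endoplasmic reticulum, MYH11 encodes the myosin heavy chain of smooth muscle, and the AL807752 features are non-coding.

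Library totals ran from 1758747 to 2357561 counts. Of 11 retinal pigment epithelium markers, the visual cycle genes RPE65, RLBP1 and LRAT had 2, 7 and 17 counts in all 17 libraries together. OTX2, TYRP1, MITF and SERPINF1 had medians from 1.98 to 20.1 CPM, which are counts scaled to a common library total. BEST1 (12270 CPM), KRT8 (3979 CPM), PMEL (317 CPM) and KRT18 (288 CPM) were high, and each of these 4 shares exon bases with a gene on the other strand (FTH1, KRT18, CDK2 and KRT8), so their values are uncertain as to the gene. Of 6 markers of other cells, TUBB3 ran from 2.22 to 9.02 CPM, PTPRC had 12 counts in all, EPCAM and ALB had 1 each, and CD3E and DES had 0. The libraries of experiment B stood apart in 3 of 3 RNA quality transcripts. MT-RNR1 was at 224 CPM or more in each of them and at 131 CPM or less in each library of A and C, MT-RNR2 at 559 or more against 534 or less, and the nuclear RNA NEAT1 at 46.3 or more against 42.7 or less. Their part in the results was not tested. In bulk RNA, fewer cells in a cell cycle phase and less RNA per cell cannot be told apart. The labels tie the 3 experiments to no separate donors or clones of the line, so the spread below is between experiments on 1 cell line.

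Promoter stretches are shown for 4 of the 5 genes, since 3 of them hold the same pair of cell cycle motifs and the NDE1 promoter holds one of the pair. They were taken from RefSeq (GRCh38.p14). Of the 9 features, 5 were matched: SAPCD2, GPSM2, CLCC1, PSRC1 and NDE1. FAM83D, MYH11, AL807752.3 and AL807752.2 were not. Each line below gives the 120 bases before an annotated start, 5′ to 3′ on the gene's own strand. Capitals mark letters of the cell cycle homology region (TTTGAA, its reverse complement TTCAAA, or TTCGAA) and of the CCAAT box (CCAAT or ATTGG). The first of these is known as a binding site of the MuvB complex at genes of G2 and mitosis, and the second of the factor NF-Y.
SAPCD2, chr9:137070558-137070677, minus strand: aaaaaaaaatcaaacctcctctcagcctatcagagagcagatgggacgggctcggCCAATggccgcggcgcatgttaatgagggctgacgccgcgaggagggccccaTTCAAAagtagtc
GPSM2, chr1:108876865-108876984, plus strand: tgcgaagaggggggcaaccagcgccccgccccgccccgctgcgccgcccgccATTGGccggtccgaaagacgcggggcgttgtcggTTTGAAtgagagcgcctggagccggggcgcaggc
PSRC1, chr1:109283146-109283265, minus strand: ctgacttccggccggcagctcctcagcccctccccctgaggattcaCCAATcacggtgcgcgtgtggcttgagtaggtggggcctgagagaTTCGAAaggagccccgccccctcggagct
NDE1, the second of its starts, chr16:15650125-15650244, plus strand: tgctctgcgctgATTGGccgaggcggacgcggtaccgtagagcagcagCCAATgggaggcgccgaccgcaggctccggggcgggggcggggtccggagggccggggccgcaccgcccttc

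In SAPCD2, GPSM2 and PSRC1 the 2 sets of letters lay in the same order and close to the start. Counted from the start, the homology region letters began at -13 in SAPCD2, -34 in GPSM2 and -29 in PSRC1. The CCAAT letters began at -65, -68 and -74. PSRC1 held the TTCGAA form and the other two the TTTGAA form on one strand or the other. NDE1 held CCAAT letters at -72, -108 and -247 of its second start and no homology region letters in either of its windows, and CLCC1 held CCAAT letters at -45 and -58 with homology region letters at -230. Over 35116 RefSeq windows of the same length (250 bases before the start to 50 after), 16.4% held homology region letters, 34.6% held CCAAT letters and 6.38% held both. The overlap of the 2 motifs was not required or barred, both strands were read, and a match describes letters only.

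**Figure D1:**
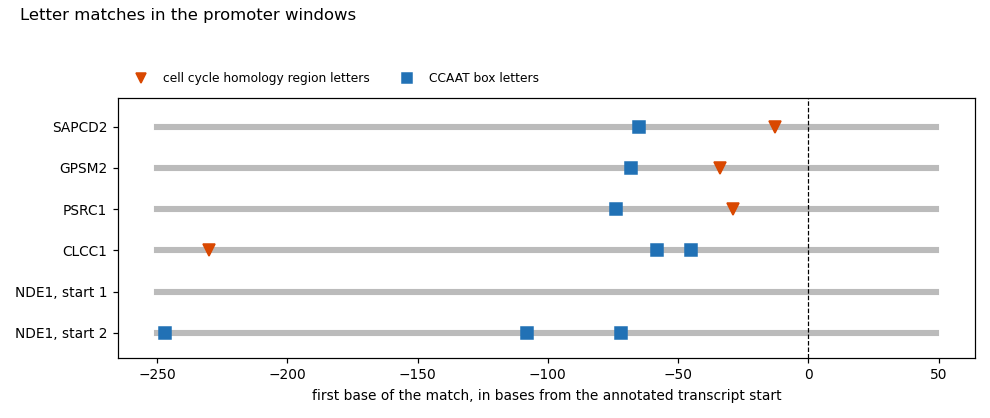
Letter matches in the promoter windows of SAPCD2, GPSM2, PSRC1, CLCC1 and NDE1, which has 2 annotated starts. The x axis is the distance of the first base of a match from the transcript start in bases; orange triangles are cell cycle homology region letters and blue squares CCAAT letters. SAPCD2, GPSM2 and PSRC1 have a square between -74 and -65 and a triangle between -34 and -13.

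The 3 overlapped loci differ in how far gene and opposite feature share exons. AL807752.3 has 748 exon bases in GENCODE v29, and 100% of them lie in SAPCD2 exons. AL807752.2 has 301, of which 134 (44.5%) lie in SAPCD2 exons. GPSM2 and CLCC1 share 2801 exon bases, 30.7% of GPSM2 and 56.4% of CLCC1. NDE1 and MYH11 share 765, 13.9% of NDE1 and 4.75% of MYH11. FAM83D and PSRC1 are overlapped by no feature on the other strand. AF001548.1 and AF001548.2, also opposite to MYH11, had 1 and 8 counts in all and are not followed further.

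Per kilobase of exon, the opposite features stood above the genes they face. Over the 17 libraries the mean level was 231 CPM per kb for AL807752.3 and 188 CPM per kb for AL807752.2 against 3.30 CPM per kb for SAPCD2. CLCC1 had 65.6 and GPSM2 33.2 CPM per kb. MYH11, a smooth muscle gene, had 15.1 CPM per kb and NDE1 1.59 CPM per kb. The 2 genes without an opposite feature were at 5.02 CPM per kb (FAM83D) and 2.60 CPM per kb (PSRC1). The strand setting of the counting is not given in the sources used here, so a value on any of the 7 overlapped features is uncertain as to the gene it belongs to. Names below are those of the rows. Whether a rise or fall on such a row belongs to the named gene or to the one opposite was not tested. FAM83D and PSRC1 have no overlapped exons, but which strand their counts come from is not known either.

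SAPCD2, the partner of LGN, was near the limit of the depth in arrested cells and in 4h_DMSO, and higher in the other conditions. In the order A, B and C, its level was 5.34, 5.96 and 2.03 CPM in arrested cells, from 9, 12 and 4 counts. It was 4.49, 2.48 and 4.92 CPM in 4h_DMSO and 10.9, 16.4 and 8.54 CPM in 4h_ATRi. At 6 h it was 14.9, 21.1 and 18.6 CPM in 6h_DMSO, and 19.6 and 30.2 CPM in A and B of 6h_ATRi. The libraries of arrested cells and 4h_DMSO overlapped at the bottom of the order, and no library of theirs reached 4h_ATRi. From 4h_ATRi upwards each condition overlapped its neighbour, with cycling cells at 19.1, 18.4 and 13.0 CPM between 4h_ATRi and 6h_DMSO by their mean.

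AL807752.3, whose exons lie wholly inside those of SAPCD2, was lowest in arrested cells and 4h_DMSO and highest in 6h_ATRi. Arrested cells had 64.7, 62.6 and 69.6 CPM, and 4h_DMSO had 80.4, 80.3 and 63.5 CPM. It stood at 224, 196 and 154 CPM in 4h_ATRi, and at 251, 160.2 and 162 CPM in 6h_DMSO. In 6h_ATRi it reached 408 and 324 CPM, above each library of cycling cells, at 214, 199.7 and 228 CPM. The 6h_ATRi libraries were thus the highest and did not overlap any other condition, while 4h_ATRi, 6h_DMSO and cycling cells overlapped. AL807752.2, the shorter feature, ran from 15.4 CPM in arrested cells to 137 CPM in 6h_ATRi with the conditions in the same order, and its log2 CPM correlated with that of AL807752.3 at r = 0.98 over the 17 libraries, which they share with their depth and locus.

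The row of GPSM2, the gene of LGN, was the one gene row with its high end in arrested cells. It had 432, 329 and 454 CPM there, and 327, 237 and 288 CPM in 4h_DMSO. In 4h_ATRi it had 279, 233 and 259 CPM, and in 6h_DMSO 268, 241 and 246 CPM. The range closed at 236 and 228 CPM in 6h_ATRi, while cycling cells had 359.6, 344 and 391 CPM. Cycling and arrested cells overlapped at the top and stood above the 4 released conditions, where the nearest libraries were arrested B at 329 and 4h_DMSO A at 327 CPM. The 3 conditions 4h_DMSO, 4h_ATRi and 6h_DMSO overlapped each other, and the lowest condition, 6h_ATRi, lay just under 6h_DMSO.

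CLCC1, the feature opposite to GPSM2, ran the other way. It had 116, 118 and 126 CPM in arrested cells and 215, 166 and 137 CPM in 4h_DMSO. It had 449.6, 484 and 328 CPM in 4h_ATRi, and 497, 391 and 385 CPM in 6h_DMSO. The highest values were 714 and 619 CPM in 6h_ATRi, with cycling cells in the middle at 293, 240.1 and 257 CPM. Of the 5 steps in this order only that from 4h_ATRi to 6h_DMSO had overlapping libraries.

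The split of counts at the GPSM2 locus moved accordingly. Of the counts on GPSM2 and CLCC1 together, GPSM2 held 76.9% ± 2.84 in arrested cells (SD, n = 3) and 62.4% ± 4.77 in 4h_DMSO (SD, n = 3). It held 38.3% ± 5.81 in 4h_ATRi (SD, n = 3) and 37.4% ± 2.09 in 6h_DMSO (SD, n = 3). The share was 25.9% ± 1.49 in 6h_ATRi (SD, n = 2) and 58.1% ± 2.70 in cycling cells (SD, n = 3). At the other 2 loci the gene's own row held a small share throughout: 5.23% for SAPCD2 (range 2.12% to 9.13% over 17 libraries) and 3.64% for NDE1 (1.12% to 6.31%). The share of SAPCD2 or NDE1 had no condition whose libraries stood clear of all others.

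**Figure D2:**
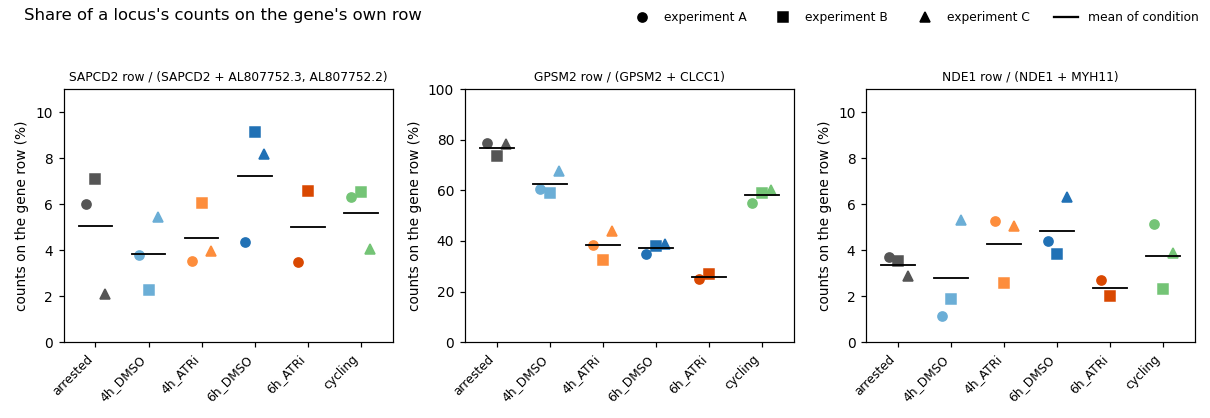
Share of the counts of a locus on the gene's own row, in percent, for SAPCD2, GPSM2 and NDE1, by condition. Points are libraries, their shape the experiment, and bars the mean; the y axis of GPSM2 runs to 100% and the others to 11%. The GPSM2 share lies near 77% in arrested cells and near 26% in 6h_ATRi, while SAPCD2 and NDE1 stay under 10%.

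FAM83D, the spindle anchor of casein kinase 1 alpha, was lowest in arrested cells. It had 1.19, 1.49 and 2.03 CPM there, from 2, 3 and 4 counts, and 5.49, 8.92 and 5.42 CPM in 4h_DMSO. With the inhibitor it had 18.7, 20.5 and 19.5 CPM at 4 h, and 20.7 and 23.2 CPM at 6 h. In 6h_DMSO it had 20.5, 19.1 and 13.2 CPM. Cycling cells, at 12.0, 11.9 and 7.24 CPM, overlapped 4h_DMSO and lay under 6h_DMSO, 4h_ATRi and 6h_ATRi.

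PSRC1, the microtubule protein that recruits KIF2A, had the lowest counts. In arrested cells there were 0, 3 and 2 counts, or 0, 1.49 and 1.02 CPM. The count of 0 in A allows up to 1.8 CPM (3 counts, counting error only). It had 4.99, 8.92 and 4.43 CPM in 4h_DMSO, and 11.4, 12.8 and 11.4 CPM in 4h_ATRi. At 6 h it had 12.1, 9.04 and 15.3 CPM in DMSO, and 7.84 and 9.16 CPM with the inhibitor. PSRC1 was the member whose 6h_ATRi libraries lay below those of 4h_ATRi without overlap, and they overlapped both 6h_DMSO and 4h_DMSO. Cycling cells, at 7.98, 3.98 and 4.35 CPM, overlapped 4h_DMSO and stood above arrested cells.

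NDE1, the dynein adaptor, separated into a low and a high set of conditions. Arrested cells had 4.75, 4.97 and 3.05 CPM, 4h_DMSO had 1.50, 3.47 and 6.40 CPM, and cycling cells had 7.09, 3.98 and 6.28 CPM. The high set was 16.0, 13.2 and 13.3 CPM in 4h_ATRi, 12.1, 12.6 and 15.3 CPM in 6h_DMSO, and 13.4 and 11.3 CPM in 6h_ATRi. No library of the low set reached the high set, and libraries overlapped between neighbours within each set. The 4h_DMSO values rest on 3, 7 and 13 counts.

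MYH11, opposite to NDE1, was at 124, 136 and 102 CPM in arrested cells and 132, 179.8 and 114 CPM in 4h_DMSO. It had 287, 502 and 251 CPM in 4h_ATRi, and 264, 314 and 228 CPM in 6h_DMSO. The highest values were 479.8 and 550.3 CPM in 6h_ATRi, which overlapped 4h_ATRi through its B library. Cycling cells, at 131, 169 and 156 CPM, overlapped 4h_DMSO and arrested cells and lay under 6h_DMSO. In each of the 6 conditions the B library was the highest for MYH11.

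**Figure D3:**
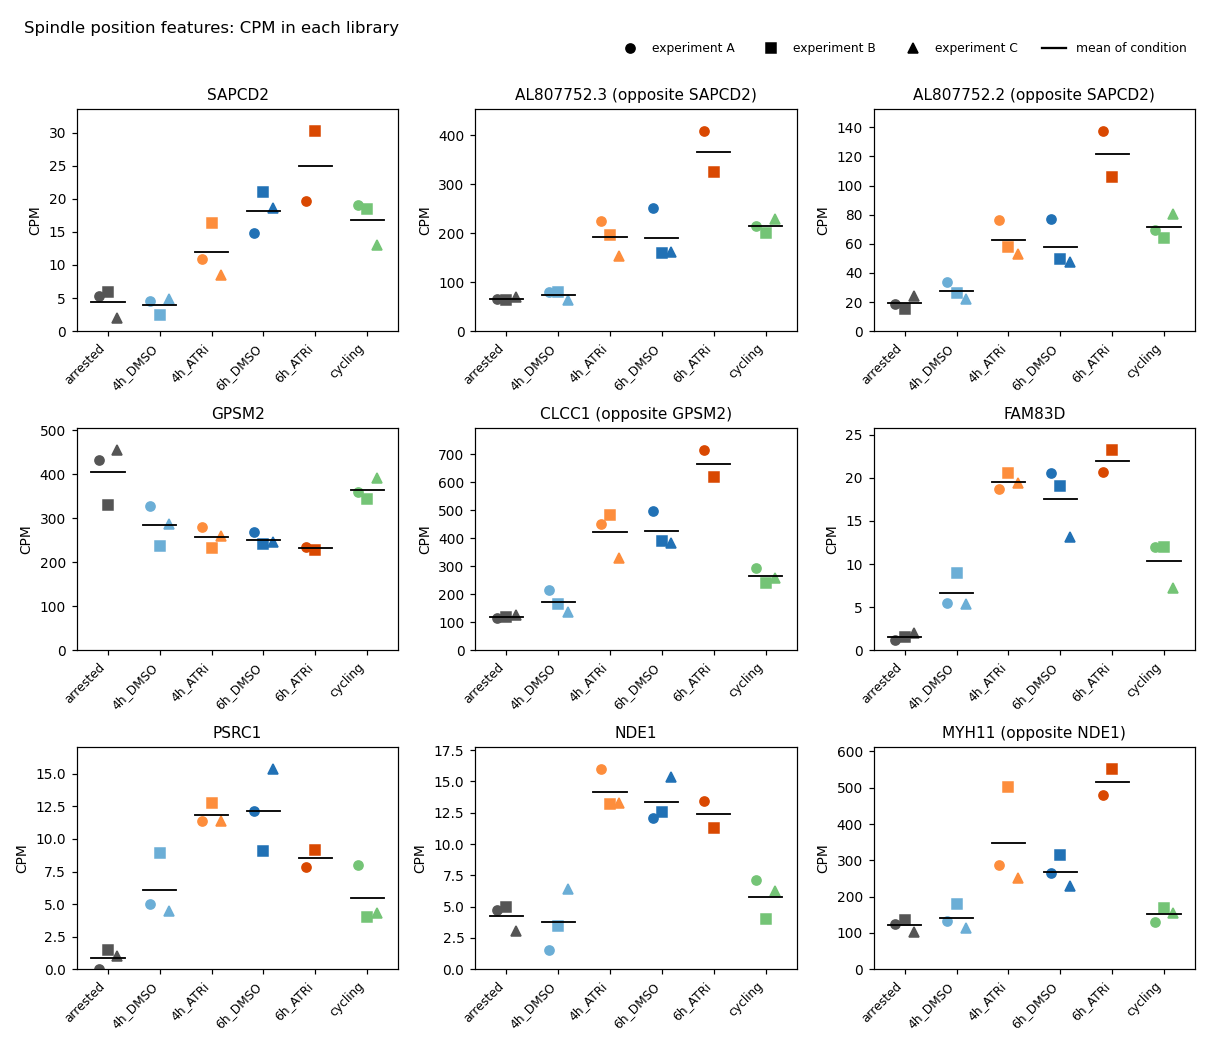
CPM of each of the 9 features in each library, by condition, on linear axes that start at 0. Points are libraries, their shape the experiment, and bars the mean of a condition. GPSM2 has its highest library, 454 CPM, in arrested cells and its lowest, 228 CPM, in 6h_ATRi, while CLCC1 opposite to it runs from 116 CPM in arrested cells to 714 CPM in 6h_ATRi.

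Between arrest and G2 in DMSO, each of the 9 features changed. FAM83D and PSRC1 had the steepest rises, GPSM2 fell, and the other 6 rose by 1.16 to 2.02 on the log2 scale. By edgeR's quasi-likelihood test, with an adjusted p under 0.05 as a call, 8 of 9 were called higher in 6h_DMSO than in arrested cells, and 1 lower. Over all tested features 1.27% were called higher and 1.06% lower. The same 8 and 1 had no overlap between the libraries, against 8.5% and 8.26% of all tested features. This comparison shares 6h_DMSO with a comparison known when the features were chosen. Features chosen with a high level in 6h_DMSO known are favoured to be higher here. The calls of higher features and their count beside all tested features are therefore descriptions.

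In that comparison PSRC1 rose by 3.70 ± 0.55 on the log2 scale (value ± SE; edgeR, adjusted p = 2.21e-04) and FAM83D by 3.43 ± 0.40 (edgeR, adjusted p = 5.25e-06). Both rest on fewer than 5 counts in each arrested library, so the size is imprecise. Within experiments A, B and C the difference was 3.30, 3.01 and 2.22 for FAM83D and 3.72, 2.01 and 3.02 for PSRC1, on log2 CPM with a prior count of 2. SAPCD2 rose by 2.02 ± 0.38 (edgeR, adjusted p = 0.00253), and its opposite features AL807752.2 by 1.57 ± 0.24 (edgeR, adjusted p = 2.49e-04) and AL807752.3 by 1.54 ± 0.19 (edgeR, adjusted p = 1.19e-05). All 3 features of that locus were higher in 3 of 3 experiments.

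CLCC1 rose by 1.82 ± 0.18 (edgeR, adjusted p = 3.10e-07), while GPSM2 on the other strand fell by 0.69 on the log2 scale, with an SE of 0.16 (edgeR, adjusted p = 0.0135). GPSM2 was lower in 3 of 3 experiments, by -0.69, -0.45 and -0.88. NDE1 rose by 1.64 ± 0.40 (edgeR, adjusted p = 0.0229) and MYH11 by 1.16 ± 0.22 (edgeR, adjusted p = 0.00429). The calls of GPSM2 and NDE1 each depended on single libraries. For GPSM2 the adjusted p was 0.0976 without arrested A, 0.110 without arrested C, 0.0605 without 6h_DMSO B and 0.0792 without 6h_DMSO C. For NDE1 it was 0.0700 without arrested A, 0.143 without arrested C and 0.106 without 6h_DMSO C (edgeR throughout).

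At 4 h of release in DMSO, FAM83D and PSRC1 had already risen from arrest. FAM83D was higher by 2.02 ± 0.44 and PSRC1 by 2.72 ± 0.59 (log2; edgeR, adjusted p = 0.0246 for both), and both were higher in 3 of 3 experiments. These 2 of 9 were called higher and 0 lower, against 0.415% and 0.326% of all tested features. Each call was lost without single libraries: FAM83D had an adjusted p of 0.114 without arrested A, 0.0815 without arrested B, 0.0887 without arrested C and 0.115 without 4h_DMSO B, and PSRC1 had 0.116 without arrested A, 0.126 without arrested C and 0.106 without 4h_DMSO B (edgeR). This comparison shares 4h_DMSO with those known before.

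The GPSM2 locus also differed between 4h_DMSO and arrest once the experiment entered as a block. CLCC1 was at 0.52 ± 0.18 and GPSM2 at -0.51 ± 0.16 on the log2 scale, with edgeR adjusted p of 0.243 and 0.150. With the experiment as a block both passed, at 0.00166 for CLCC1 and 1.32e-04 for GPSM2 (edgeR), which made 3 of 9 called higher and 1 lower against 2.25% and 2.52% of all tested features, and CLCC1 was higher and GPSM2 lower in 3 of 3 experiments. SAPCD2 at -0.16 ± 0.45, NDE1 at -0.16 ± 0.45, AL807752.3 at 0.19 ± 0.19, AL807752.2 at 0.48 ± 0.25 and MYH11 at 0.24 ± 0.22 did not pass in either fit, and their libraries overlapped.

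Arrested and cycling cells, whose libraries enter none of the comparisons known before, differed in 6 of the 9 features. All 6 were lower in arrested cells, against 0.429% of all tested features called lower, and the libraries of the same 6 did not overlap, against 8.62% of all tested features. FAM83D fell by 2.67 on the log2 scale (SE 0.42; edgeR, adjusted p = 5.68e-04), PSRC1 by 2.56 (SE 0.60; edgeR, adjusted p = 0.0302) and SAPCD2 by 1.92 (SE 0.38; edgeR, adjusted p = 0.00835). AL807752.2 fell by 1.86 (SE 0.24; edgeR, adjusted p = 3.12e-05), AL807752.3 by 1.70 (SE 0.19; edgeR, adjusted p = 5.35e-06) and CLCC1 by 1.13 (SE 0.18; edgeR, adjusted p = 6.60e-04). Each of the 6 was lower in 3 of 3 experiments.

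The other 3 features did not pass between arrested and cycling cells. GPSM2 was at 0.15 ± 0.15 (edgeR, adjusted p = 0.851), NDE1 at -0.45 ± 0.43 (edgeR, adjusted p = 0.836) and MYH11 at -0.33 ± 0.22 (edgeR, adjusted p = 0.706). Both strands of the NDE1 locus were thus among those with overlapping libraries, and at the GPSM2 locus CLCC1 passed and GPSM2 did not. The call of SAPCD2 was lost without arrested C (adjusted p = 0.0942) or cycling A (0.0714), and that of PSRC1 without arrested A (0.139), arrested B (0.0520), arrested C (0.112), cycling A (0.218) or cycling C (0.0538), all by edgeR.

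**Figure D4:**
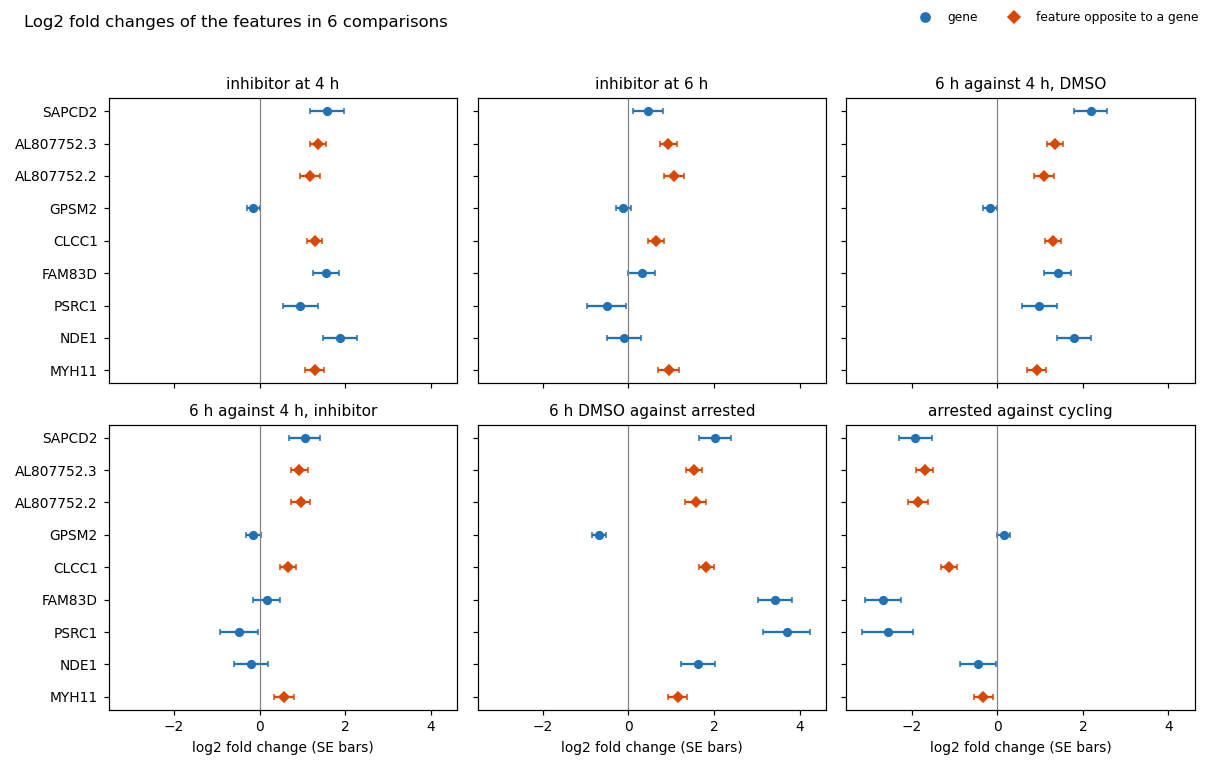
Log2 fold changes of the 9 features in 6 comparisons, with bars of 1 SE from edgeR; blue circles are genes and orange diamonds features opposite to a gene. GPSM2 lies to the left of 0 where CLCC1 lies to the right in 5 of the panels, and the order turns over in arrested against cycling cells. In the panel for the inhibitor at 6 h the 4 diamonds lie at 0.65 or more and the circles between -0.51 and 0.45. The bars of SAPCD2, FAM83D, PSRC1 and NDE1 are wider there than those of the diamonds.

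With the inhibitor at 4 h, 8 of the 9 features were higher than in 4h_DMSO and GPSM2 was not. This is one of the comparisons the choice of features rests on, so nothing is read from it. The 8 had no overlap between the libraries of the conditions (5.5% of all tested features had none and were higher). The log2 differences were 1.88 ± 0.40 for NDE1, 1.58 ± 0.39 for SAPCD2, 1.56 ± 0.31 for FAM83D and 0.95 ± 0.41 for PSRC1. Those of the opposite features were close together, from 1.18 ± 0.23 for AL807752.2 to 1.36 ± 0.19 for AL807752.3. GPSM2 was at -0.15 ± 0.16.

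From 4 h to 6 h in DMSO, the other comparison behind the choice, the same 8 features were higher with no overlap of libraries (5.11% of all tested features), and GPSM2 was not. SAPCD2 was higher by 2.18 ± 0.38, NDE1 by 1.79 ± 0.40, FAM83D by 1.41 ± 0.32 and PSRC1 by 0.98 ± 0.41 on the log2 scale. AL807752.3 was higher by 1.36 ± 0.19, AL807752.2 by 1.08 ± 0.23, CLCC1 by 1.30 ± 0.18 and MYH11 by 0.92 ± 0.22. Over all tested features edgeR called 0.0666% higher, and 0.651% when blocked by experiment. The 2 comparisons share 4h_DMSO, so their likeness is not a result.

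Inhibited cells at 4 h and uninhibited cells at 6 h had overlapping libraries for each of the 9 features. The estimates, 4h_ATRi against 6h_DMSO, ran from -0.60 ± 0.33 for SAPCD2 to 0.37 ± 0.21 for MYH11 on the log2 scale. AL807752.3 was at 0.00 ± 0.18, CLCC1 at -0.01 ± 0.17, GPSM2 at 0.03 ± 0.16 and PSRC1 at -0.03 ± 0.38. FAM83D was at 0.15 ± 0.28, NDE1 at 0.09 ± 0.35 and AL807752.2 at 0.10 ± 0.21. PSRC1 and NDE1, with the fewest counts, had the widest SE. edgeR and DESeq2 called 0 of the 9, and 0 had an unadjusted p under 0.05 (5.57% of all tested features). This does not show that the levels were alike. Both groups enter comparisons known before, and 0.0962% of all tested features were called either way.

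At 6 h the features that passed with the inhibitor, once the experiment entered as a block, were the 4 on the opposite strand: AL807752.3, AL807752.2, CLCC1 and MYH11. None of the 9 was called by edgeR without the experiment, where 0.0074% of all tested features were called higher. With the experiment as a block 4 of 9 were called higher, and 0.407% of all tested features. AL807752.2 was at 1.06 ± 0.23 on the log2 scale (edgeR, adjusted p = 0.172 and, with the block, 3.33e-05) and AL807752.3 at 0.94 ± 0.19 (0.137 and 2.36e-07).

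MYH11 was at 0.94 ± 0.24 (edgeR, adjusted p = 0.443 and, with the block, 3.31e-07) and CLCC1 at 0.65 ± 0.19 (0.643 and 9.03e-04). Each of these 4 was higher in both experiments: AL807752.3 by 0.70 and 1.01 in A and B, AL807752.2 by 0.83 and 1.07, CLCC1 by 0.52 and 0.66, and MYH11 by 0.86 and 0.81. Their unadjusted p was under 0.05, as was that of 648 of all tested features, and DESeq2 called 3 of them: AL807752.3, AL807752.2 and MYH11. DESeq2 called 17 higher and 2 lower among the 3352 features to which it gave an adjusted p. It gave none to SAPCD2, FAM83D, PSRC1 and NDE1, so it could not call these genes. Without 6h_DMSO A, edgeR called AL807752.3 (adjusted p = 0.0367). Without 6h_DMSO C, its edgeR adjusted p was 0.864, and that of AL807752.2, CLCC1 and MYH11 was 0.9998 each.

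The 5 genes at 6 h stood between -0.51 and 0.45 and were not called in any of these fits. SAPCD2 was at 0.45 ± 0.35, FAM83D at 0.31 ± 0.32, NDE1 at -0.11 ± 0.40, GPSM2 at -0.12 ± 0.18 and PSRC1 at -0.51 ± 0.45 on the log2 scale, with an edgeR adjusted p of 1.00 for each. Libraries did not overlap for 5 features that were higher, the 4 opposite features and FAM83D, and for GPSM2, which was lower. Of all tested features 9.9% and 9.07% had no overlap in these directions, where 6h_ATRi has 2 libraries. Depth differed between the 2 kinds of feature. In 6h_DMSO the 4 opposite features had means from 58.1 to 424 CPM. SAPCD2, FAM83D, PSRC1 and NDE1 had means from 12.2 to 18.2 CPM and wider SE, while GPSM2 had 251.5 CPM. Whether genes and opposite features responded differently was not tested. 6h_DMSO is shared with a comparison known before.

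Under the inhibitor from 4 h to 6 h, the estimates for the SAPCD2 locus were positive on both strands, and those of the other 4 genes ran from -0.48 to 0.17. SAPCD2 was at 1.05 ± 0.36, AL807752.2 at 0.96 ± 0.23 and AL807752.3 at 0.93 ± 0.19 on the log2 scale. CLCC1 was at 0.66 ± 0.19 and MYH11 at 0.57 ± 0.24, FAM83D at 0.17 ± 0.31, GPSM2 at -0.15 ± 0.18, NDE1 at -0.19 ± 0.39 and PSRC1 at -0.48 ± 0.45. With the experiment as a block, edgeR called 4 higher (0.814% of all tested features), the 4 opposite features. Without it edgeR called 0 (0.0222%), and 5 had an unadjusted p under 0.05 (6.07% of all tested features). DESeq2 called 1, AL807752.3, with 17 higher and 9 lower among the 5153 features to which it gave an adjusted p. It gave none to SAPCD2, FAM83D, PSRC1 and NDE1. The libraries did not overlap for 5 features that were higher (10.1% of all tested features) and for 1, PSRC1, that was lower (9.55%). 4h_ATRi is shared with a comparison known before, so these estimates and calls are descriptions.

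The difference between the responses at 6 h and at 4 h was negative for 8 of the 9, while 51.5% of all tested features were positive. It was -1.99 ± 0.56 for NDE1, -1.46 ± 0.61 for PSRC1, -1.24 ± 0.45 for FAM83D and -1.13 ± 0.53 for SAPCD2 on the log2 scale. It was -0.64 ± 0.26 for CLCC1, -0.42 ± 0.27 for AL807752.3, -0.35 ± 0.32 for MYH11, -0.13 ± 0.32 for AL807752.2 and 0.03 ± 0.24 for GPSM2. edgeR called 0 of the 9 and 0% of all tested features, with 5 of the 9 and 401 of all tested features at an unadjusted p under 0.05, and DESeq2 called 0. Blocked by experiment, CLCC1 was called (-0.72, adjusted p = 0.0219), with 0.0444% of all tested features called lower. This difference contains the 4 h comparison behind the choice of features. Features chosen with a high response at 4 h known are favoured to be negative here, so nothing is read from these signs and calls.

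Across the 17 libraries the log2 CPM of FAM83D and PSRC1, the genes free of an opposite feature, ran together at r = 0.91. FAM83D stood at 0.92 with CLCC1, 0.83 with AL807752.3, 0.81 with MYH11 and 0.73 with SAPCD2. With GPSM2 it stood at -0.77, and CLCC1 stood at -0.69 with GPSM2. NDE1 stood at 0.75 with MYH11, and SAPCD2 at 0.86 with AL807752.3. These correlations are descriptions over libraries that share conditions, experiments and depth.

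Among 7145 tested features with a mean of at least 10 CPM, those most like each member in log2 CPM over the 17 libraries were found. For FAM83D they were PLK1 (r = 0.96), the mitotic kinase, CDC20 (0.95), the activator of the anaphase-promoting complex, and AC005339.1 (0.93), opposite to TNFAIP8L1. For PSRC1 they were AC106820.3 (0.90), AC106820.5 (0.88), opposite to cyclin F (CCNF), and PLK1 (0.88). For NDE1 they were CKAP2 (0.87), a spindle protein, ARHGAP11A (0.84) and TPX2 (0.83), the spindle assembly factor that activates Aurora A.

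For genes and opposite features alike, the most like included features that share exon bases with another on the other strand. How many of the 7145 searched features do so was not counted. CLCC1 was most like AC005339.1 (r = 0.98), AC008870.3 (0.98), opposite to PLK1, and AL138789.1 (0.98), opposite to DEPDC1. AL807752.3 was most like AL021707.1 (0.96) and GTPBP1 (0.94), both opposite to SUN2, and ERN2 (0.94), opposite to PLK1. AL807752.2 was most like AL021707.1 (0.97), GTPBP1 (0.97) and ENSG00000268310 (0.97), which has no name in the tables used. SAPCD2 was most like PLIN3 (0.87), AC005339.1 (0.84) and ERN2 (0.83). MYH11 was most like PMS2P1 (0.94), MYO1E (0.93) and INCENP (0.93), the scaffold of the chromosomal passenger complex. GPSM2 was most like THRIL (0.96), opposite to BRI3BP, DNAH11 (0.96), opposite to CDCA7L, and SYNM-AS2 (0.95), opposite to SYNM.

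Of the wider machinery of spindle position, a list of 75 further genes in 6 roles was read in the same fits, and 66 passed the filter on low counts. In 6h_DMSO against arrest 6 of the 66 rose, 0 fell and 60 did not pass, and the median was 0.16 on the log2 scale against -0.01 over all tested features. Of all tested features 1.27% were called higher and 1.06% lower there. The block made this 9 of the 66 higher and 2 lower, against 3.77% and 3.94% of all tested features. The 3 that it added as higher were KIF2C, KIF18B and MSN. Without 6h_DMSO C, 3 were called. edgeR called 0 of the 66 in 4h_DMSO against arrest, where 7 had an unadjusted p under 0.05 (9.67% of all tested features), DESeq2 called 0 and the block called 5 higher (2.25%): TACC3, SPDL1, ASPM, EZR and MSN. It called 0 in arrested against cycling cells, where 6 had an unadjusted p under 0.05 (9.89% of all tested features), DESeq2 called 0 and the block called 6 lower (2.83%).

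Of the 6 genes that rose, 4 stand with FAM83D or PSRC1 in the list, whose roles are groupings and do not show binding. Of 8 genes listed with FAM83D, ASPM, which focuses spindle poles, rose by 1.54 ± 0.28 (edgeR, adjusted p = 0.00196) and TPX2 by 1.16 ± 0.20 (edgeR, adjusted p = 0.00109). TPX2 went from 27.6 ± 3.57 CPM in arrested cells to 61.6 ± 13.1 CPM in 6h_DMSO (SD, n = 3 each). Of 11 tested PSRC1 partners and microtubule end proteins, KIF18A, a kinesin that limits chromosome movement, rose by 1.83 ± 0.49 (edgeR, adjusted p = 0.0457), and TACC3, a spindle microtubule crosslinker, by 1.02 ± 0.22 (edgeR, adjusted p = 0.00760). KIF18A is overlapped by METTL15 and is uncertain as to the gene.

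Of 19 dynein and dynactin genes 1 rose, SPDL1, the dynein adaptor of the kinetochore, by 1.28 ± 0.35 (edgeR, adjusted p = 0.0450). NDEL1, a relative of NDE1 and the most abundant of that role at 126 CPM, was at -0.19 ± 0.18 (edgeR, adjusted p = 0.785) and is overlapped by MYH10. Of 10 tested genes of the cortex and adhesion, EZR, the membrane to actin linker ezrin, rose by 0.85 ± 0.19 (edgeR, adjusted p = 0.00926) and is overlapped by EZR-AS1. ITGB1, the integrin beta 1 chain, was at 0.07 ± 0.18 (edgeR, adjusted p = 0.950).

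edgeR called 0 of the 11 tested cortical anchors and 0 of the 8 tested polarity proteins in 6h_DMSO against arrest, with 2 and 1 at an unadjusted p under 0.05 and 0 by DESeq2. With the block, 2 of the 11 anchors were called lower, NUMA1 and EPB41, and 0 of the 8 polarity proteins. NUMA1, which joins LGN to dynein, had a mean of 178 CPM and was at -0.49 ± 0.18 (edgeR, adjusted p = 0.215 and, with the block, 0.00199). EPB41, a membrane skeleton protein opposite to TMEM200B, was at -1.02 ± 0.38 (edgeR, adjusted p = 0.203 and, with the block, 0.0304). PRKCZ, an atypical protein kinase C with 58.8 CPM, was at -0.05 ± 0.19 (edgeR, adjusted p = 0.965). All 3 are overlapped by other genes.

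With the inhibitor at 4 h, 1 of the 66 genes was higher by the test, TPX2 at 0.96 ± 0.19 (edgeR, adjusted p = 0.0206), and 5 with the block (TPX2, TACC3, ASPM, KNSTRN and KIF18B). Of all tested features 0.289% were called higher, and 1.2% with the block. The list was chosen with earlier results of these data known, this comparison among them, so these calls are descriptions and support nothing. TPX2 had 68.0 ± 6.38 CPM in 4h_ATRi and 35.0 ± 4.22 CPM in 4h_DMSO (SD, n = 3 each). The call was lost without 4h_DMSO A, B or C or 4h_ATRi A, when 0 of the 66 were called. The median over the 66 was -0.02 on the log2 scale against -0.01 over all tested features. At 6 h edgeR called 0 of the 66 with or without the block, 3 had an unadjusted p under 0.05 (648 of all 13510 tested features) and DESeq2 called 0. The medians there were -0.03 for the list and 0.01 for all tested features.

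Of 29 tested features opposite to genes of that list, 3 were called in any of the 9 comparisons, against 3.21% of all tested features. HMMR-AS1, opposite to the FAM83D partner HMMR, rose by 0.91 ± 0.17 from arrest to 6h_DMSO (edgeR, adjusted p = 0.00224). TMEM200B, opposite to EPB41, fell by 1.17 on the log2 scale (SE 0.24; edgeR, adjusted p = 0.00636), and by 1.10 (SE 0.24; edgeR, adjusted p = 0.0246) by 4 h. AC139100.1, opposite to PARD6G, was higher in arrested than in cycling cells by 1.51 ± 0.38 (edgeR, adjusted p = 0.0448; 0.6% of all tested features were called higher). The call of TMEM200B at 4 h was lost without arrested A or C or 4h_DMSO A or C, and that of AC139100.1 without arrested A or B, 4h_ATRi A or C, 6h_ATRi A or any library of cycling cells, when 0 of the 29 were called. In 6h_DMSO against arrest 1 of the 29 was called without arrested A or 6h_DMSO C.

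**Figure D5:**
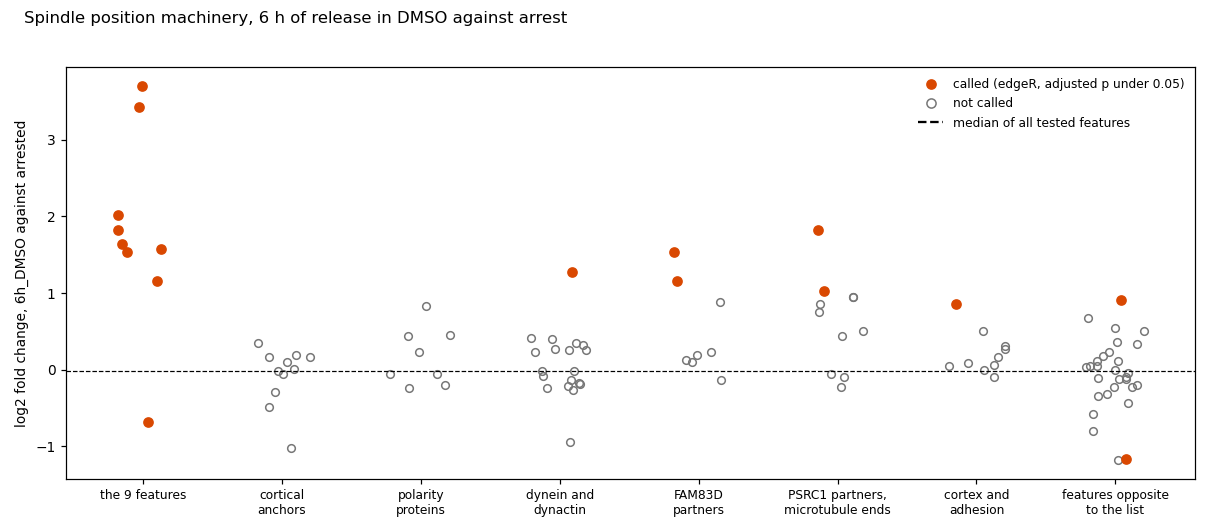
Log2 fold change in 6h_DMSO against arrested cells for the 9 features, for 6 roles of the spindle position machinery and for features opposite to those genes. Filled points passed edgeR's test at an adjusted p under 0.05, open points did not, and the dashed line is the median of all tested features. The 9 features run from -0.69 to 3.70, while 60 of the 66 listed genes are open points.

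The authors' deposited table of log2 fold changes has the same sign as the fits here in 54 of 54 values, the 9 features in 6 comparisons. In the authors' deposited table, with the inhibitor at 6 h AL807752.3 was at 0.83 (adjusted p = 0.0104) and AL807752.2 at 0.89 (adjusted p = 0.0338), while MYH11 was at 0.79 (0.0783) and CLCC1 at 0.57 (0.237). In the authors' deposited table, GPSM2 was at -0.48 (adjusted p = 0.0267) at 4 h against arrest and at -0.65 (adjusted p = 3.71e-04) at 6 h against arrest. For SAPCD2, FAM83D, PSRC1 and NDE1 the authors' deposited table gives no adjusted p in the comparisons of 4 h or 6 h with arrest.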

How the data were processed

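The deposited counts are whole numbers of reads per gene ID in 17 libraries, without normalisation by the authors. Per the labels' protocols, Trizol RNA was prepared with a KAPA Stranded mRNA-Seq kit. TopHat, HTSeq, DESeq2 and GRCh37 are named in the submitters' processing notes. No source used here gives a version, an annotation release or how strand was counted. The authors also deposited log2 fold changes with adjusted p-values for 6 comparisons, whose direction was checked against the counts. Names came from a name table (55528 IDs matched), and exon lengths and overlaps from GENCODE v29 (55951 IDs matched), without its coordinates.

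Totals ran from 1758747 to 2357561 counts. At this depth 1 CPM is about 2 counts, so low features are imprecise. Without molecular identifiers, limits from counts cover counting error only. Levels are CPM over tested features with TMM factors. Features were kept by filterByExpr (minimum count 10, minimum total 15). edgeR 4.0.16 in R 4.3.3 (glmQLFit with robust estimation and glmQLFTest, two-sided) was fitted once over the 17 libraries with 1 mean for each condition, 11 residual degrees of freedom, and Benjamini-Hochberg adjustment over 13510 features. The common coefficient of variation between libraries was 0.23. The script was tested on simulated counts.

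Column letters A, B and C were taken as the 3 experiments of the design text. Same-letter libraries deviated together from their condition means, with correlations across features of 0.138 to 0.536 over 22 compared pairs, against -0.465 to 0.262 over 44 pairs of different letters. The 2 ranges overlap. Libraries of B stood apart, with B against B at 0.403 to 0.536. A and C were not clearly told apart: arrested C against 4h_DMSO A had 0.262 and arrested A against 4h_DMSO A 0.203. Deviations from a condition mean also favour negative correlations between different letters by their construction. Pairing by letter is thus taken from the column names. The fit with experiment as a block (9 residual degrees of freedom) is given beside a result whose call or count it changes. For 6h_ATRi, experiment C is not analysed here. The alternatives were this block, RLE size factors, DESeq2 1.42.0, no filter, no robust estimation, leaving out each library, and leaving out experiment B.

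The 9 features, the list of 75 genes in 6 roles and the rule for named genes (the 9 features and features opposite to them, the 3 most correlated features of each, and listed genes that were called or most abundant in a role) were chosen with earlier results of these data known. Genes of the list named for a call with the block alone (KIF2C, KIF18B, MSN, KNSTRN, EPB41) were added after their values were seen.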

Additional observations from a re-analysis of the deposited data

How the results depend on the processing

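Of the 81 values (9 features in 9 comparisons), direction and call were kept in 81 with RLE size factors, 81 without robust estimation, 65 with the replicate block, 73 without the low count filter and 63 with experiment B left out, and in 61 of the 69 that have an adjusted p by DESeq2. With the replicate block the other 16 gained a call. With experiment B left out 14 gained a call, 1 lost it (FAM83D, 4h_DMSO against arrested, adjusted p = 0.155) and 3 turned their sign: AL807752.3 in 4h_ATRi against 6h_DMSO (-0.13, and -0.0128 without the low count filter), and in 4h_DMSO against arrested SAPCD2 (0.40) and NDE1 (0.0603). None of these 3 was called. The cause of these moves was not tested. Calls of the 9 features for the inhibitor at 4 h and for 6 h against 4 h in DMSO, on which their choice rests, support nothing. Depth limits PSRC1, FAM83D, NDE1 and SAPCD2 most. With experiment B or a 6h_ATRi library left out, 6h_ATRi has 1 library, assumed to vary like the others.

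Features called with the replicate block were 4 at 6 h with the inhibitor, 7 for 6 h against 4 h in DMSO, 4 for the same with the inhibitor, 1 for the difference of responses and 4 for 4h_DMSO against arrested. DESeq2 called 3, 6 and 1 in the first 3 of these, the fit without the low count filter 3, 6 and 1, and that without experiment B 4, 7 and 4. From the list of 66 genes, the replicate block called 5 for the inhibitor at 4 h. It called 1 for 6 h against 4 h in DMSO and 1 for the same with the inhibitor. It called 5 for 4h_DMSO against arrested, 11 for 6h_DMSO against arrested and 6 for arrested against cycling. Over all 13510 tested features the block called 162 higher and 75 lower for the inhibitor at 4 h, and 55 and 17 at 6 h. For 6 h against 4 h it called 88 and 53 in DMSO, and 110 and 57 with the inhibitor. The difference of responses had 0 and 6. Against arrest there were 304 and 340 for 4h_DMSO, and 509 and 532 for 6h_DMSO. Arrested against cycling had 379 and 383. From the list, DESeq2 called 1 for 6 h against 4 h in DMSO, and the fit without the low count filter 2 for the inhibitor at 4 h. Over all features with an adjusted p, DESeq2 called 28 higher and 5 lower of 9358 for 6 h against 4 h in DMSO. It called 103 and 82 of 6355 for 4h_DMSO against arrested. The fit without the filter, over 30982 features, called 40 and 2 for the inhibitor at 4 h and 10 and 0 at 6 h. For 6 h against 4 h it called 26 and 8 in DMSO, and 13 and 5 with the inhibitor. Without experiment B the list had 3 for the inhibitor at 4 h, 2 and 1 for 6 h against 4 h in DMSO and with the inhibitor, 2 for 4h_DMSO against arrested and 3 for arrested against cycling. From the 29 features opposite to that list, the replicate block called 3 and 1 for the inhibitor at 4 h and 6 h, 1 each for 6 h against 4 h in DMSO and with the inhibitor, 4 for 4h_DMSO against arrested, 5 for 6h_DMSO against arrested and 5 for arrested against cycling. DESeq2 called 1, 1, 2 and 0 for 6 h against 4 h in DMSO, the same with the inhibitor, 4h_DMSO against arrested and arrested against cycling, and the fit without robust estimation 0 for the last. Without experiment B they were 1 and 1 for the inhibitor at 4 h and 6 h, 1 and 1 for 6 h against 4 h, 2 for 4h_DMSO against arrested and 2 for arrested against cycling.

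Leaving out 1 library at a time, the features called ranged from 3 to 6 for the inhibitor at 4 h, 0 to 1 at 6 h, 2 to 5 for 6 h against 4 h in DMSO, 0 to 2 for 4h_DMSO against arrested, 7 to 9 for 6h_DMSO against arrested and 4 to 6 for arrested against cycling. The list of 66 ranged from 0 to 1 for the inhibitor at 4 h and for 6 h against 4 h in DMSO, and from 3 to 6 for 6h_DMSO against arrested. The opposite 29 ranged from 0 to 1 for 4h_DMSO against arrested and for arrested against cycling, and from 1 to 2 for 6h_DMSO against arrested. Estimates near 0 turned their sign: for 4h_ATRi against 6h_DMSO AL807752.3 ran from -0.13 to 0.25, AL807752.2 from -0.0737 to 0.36, CLCC1 from -0.12 to 0.15, FAM83D from -0.0053 to 0.28, GPSM2 from -0.034 to 0.10, NDE1 from -0.0061 to 0.21 and PSRC1 from -0.20 to 0.17. For the difference of responses AL807752.2 ran from -0.36 to 0.11, GPSM2 from -0.10 to 0.13 and MYH11 from -0.57 to 0.0016. For 4h_DMSO against arrested SAPCD2 ran from -0.51 to 0.15 and NDE1 from -0.75 to 0.23, and for the inhibitor at 6 h NDE1 ran from -0.26 to 0.0178.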
